A study of Mus musculus with 2 samples.

Results

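The immediate early AP-1 and EGR transcription factors were followed through 10 genes, namely Fos, Fosb, Fosl1, Fosl2, Jun, Junb, Jund, Egr1, Egr2 and Atf3. They were taken by gene symbol from a deposited table of 34745 genes, in which each of the 10 had 1 row. Bone marrow cells of mice aged 6 to 8 weeks were kept in culture until day 7 in 50 ng/ml GM-CSF alone (CHBP- M-MDSC) or with GM-CSF and CHBP, a cyclic helix B peptide derived from erythropoietin (CHBP+ M-MDSC). Monocytic myeloid-derived suppressor cells were then sorted as CD11b+Ly6G-Ly6C high cells, and total RNA of each condition was sequenced as 1 library. The strain label is C57BL/6 for the CHBP- library and C57BL/7 for the CHBP+ library. The methods of the study name C57BL/6 mice and no C57BL/7 strain. Whether the strains differed was not tested. No CHBP dose is printed here, because its unit differs between sources. How many mice were pooled was not stated. There were no replicates, so no spread between samples could be set against any difference, and CHBP cannot be told apart from any other difference between both libraries.

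AP-1 is a dimer of basic leucine zipper proteins, in which a Jun protein pairs with itself, with a Fos protein or with an ATF protein such as Atf3, whereas Fos proteins need a partner. EGR proteins are zinc finger factors that bind GC-rich sites and are held back by the NAB corepressors. In myeloid cells both groups are transcribed within minutes of a growth factor or a stress signal, through MAP kinases, the serum response factor SRF and its ternary complex partners, and their mRNAs are usually short-lived.

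The CHBP- library held 16484504 counted reads and the CHBP+ library 16280466. Levels are given as deposited FPKM, reads corrected for the length of the gene and for library size. The log2 ratio is log2((FPKM in CHBP+ + 1)/(FPKM in CHBP- + 1)). The fold is the ratio of CPM (reads scaled to the same library total), CHBP+ over CHBP-, with its exact Clopper-Pearson 95% interval. Reads are not independent molecules, so every interval covers counting error only. Of the 10 genes, 9 reached 1 FPKM, and they did so in both libraries. Only 1 of these 9 genes, Egr2, was at least 1.5-fold higher with CHBP on the log2 ratio scale, and 0 were at least 1.5-fold lower. Of all 10948 genes with at least 1 FPKM in either library, 3.42% were that much higher and 2.89% that much lower. Past 1.5-fold refers to the log2 ratio throughout, which is smaller than the CPM fold for genes of low FPKM. The median log2 ratio of the 9 genes was 0.04, beside -0.03 for all 10948.

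**Figure D1:**
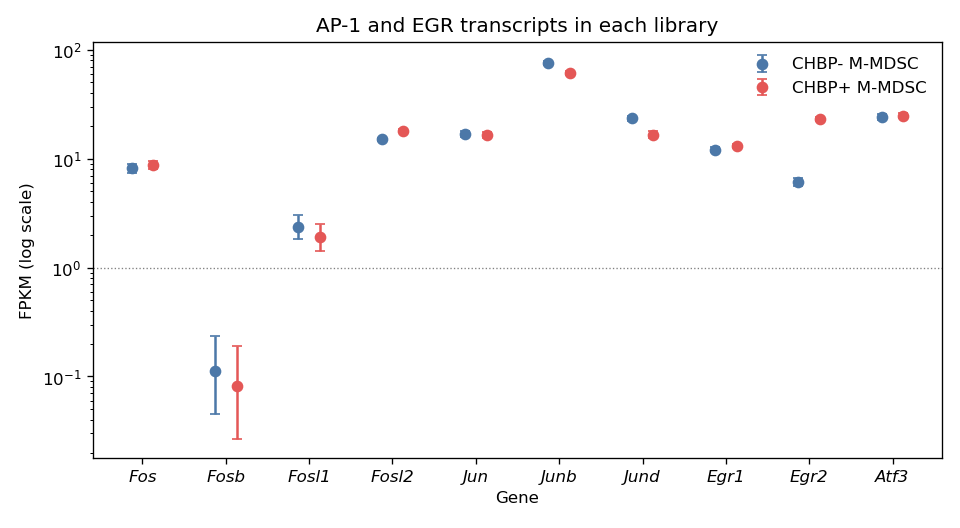
FPKM (log axis) of each AP-1 and EGR gene in the CHBP- library (blue) and the CHBP+ library (red), with exact Poisson 95% intervals for counting error. The dotted line marks 1 FPKM. Egr2 stands at 6.09 and 23.0 FPKM, and no other gene above 1 FPKM is as far apart between the libraries.

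Egr2 (ENSMUSG00000037868, also known as Krox20) is a zinc finger factor of hindbrain and Schwann cell development that is also expressed in macrophages. It is listed on chromosome 10 from 67535475 to 67542188 of GRCm38, and no other listed gene overlapped it. It had 545 reads without CHBP and 2035 reads with CHBP, or 6.09 and 23.0 FPKM. The CHBP+ library was thus the higher by a fold of 3.78 (95% interval 3.44 to 4.16), with a log2 ratio of 1.76. That ratio was the 13th highest of the 10948 genes. Among 3696 genes with at least 1000 reads with CHBP, 12, Egr2 included, had a fold at least as high. Egr2 entered that set only through its CHBP+ reads, so the set leans towards genes that are higher with CHBP. In bulk RNA, a larger share of cells with Egr2 mRNA and more Egr2 mRNA per cell cannot be told apart.

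RefSeq promoter windows, 250 bases before to 50 after a start site on GRCm38.p6, were found for 8 of the 10 genes, and none was given for Egr1 and Fosl1. They were searched on both strands for the CArG box (the SRF site), the cyclic AMP response element TGACGTCA, the AP-1 site TGANTCA, the TATA box TATAAA and the EGR site GCGNGGGCG. These motifs do not overlap in the matches described here. Within these windows, Egr2 was the only one of the 8 genes with a CArG box, which 1.63% of all 32851 windows held. That share is per window, and Egr2 had 5 windows while the other searched genes had 1 each. Boxes further upstream than 250 bases were not searched for, so a gene without a match may still have one there. The box lay in 4 of the 5 windows of Egr2, at 2 distinct positions, each starting 72 bases before one of its start sites. The stretches around them are shown because Egr2 is the gene that differed most, with the CArG box in capitals.
Egr2, chr10:67537484-67537513, plus strand: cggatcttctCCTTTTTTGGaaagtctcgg
Egr2, chr10:67537787-67537816, plus strand: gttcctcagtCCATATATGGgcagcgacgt

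The EGR site was found in the windows of Fosb and Fosl2, and in 5.55% of all windows. Both stretches are shown with the site in capitals, because it is the motif that EGR proteins such as Egr2 bind.
Fosb, chr7:19310061-19310120, minus strand: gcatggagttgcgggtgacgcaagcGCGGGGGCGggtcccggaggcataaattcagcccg
Fosl2, chr5:32136368-32136427, plus strand: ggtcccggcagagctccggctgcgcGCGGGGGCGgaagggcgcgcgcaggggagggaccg
The letters TATAAA were found in the windows of Fos and Junb and in 13.6% of all windows. In Fos they started 33 bases before the start site, but in Junb they started at the start site itself. The cyclic AMP response element (1.79% of windows) and the AP-1 site (7.81%) were found in none of the 8 genes. A match is a run of letters in these windows and says nothing of binding.

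Fosl2 (chromosome 5, 32135801 to 32157842), the Fos protein Fra-2, was the most deeply read of the 10 genes, with 2883 reads without CHBP and 3410 with CHBP. Its FPKM was 15.1 and 18.0, a fold of 1.20 (1.14 to 1.26) and a log2 ratio of 0.25. The higher level in the CHBP+ library exceeded counting error but was below 1.5-fold. Fosb (chromosome 7, 19302721 to 19310045), which encodes a Fos protein best known from neurons, had 7 and 5 reads, or 0.113 and 0.0819 FPKM. The interval of its fold ran from 0.181 to 2.65, so a difference was not detectable at this depth.

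Fos (chromosome 12, 85473890 to 85477273), the founding member of the family, had 508 reads without CHBP and 540 with CHBP, or 8.13 and 8.75 FPKM. The interval of its fold, 0.952 to 1.22, covered 1. Fosl1 (chromosome 19, 5447703 to 5455945), the Fos protein Fra-1, had 67 and 53 reads, or 2.38 and 1.91 FPKM, and its interval of 0.548 to 1.17 covered 1 as well. Of the Fos family, Fosl2 alone therefore differed beyond counting error. Summed over the 4 genes, the family stood at 25.7 FPKM without CHBP and 28.8 FPKM with CHBP.

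Junb (chromosome 8, 84976909 to 84978748), a Jun protein with weaker transactivation than Jun, had the highest level of the 10 genes in both libraries, with 75.1 FPKM without CHBP and 60.9 FPKM with CHBP. These were 2278 and 1823 reads, a fold of 0.810 (0.761 to 0.862) and a log2 ratio of -0.30. Jund (chromosome 8, 70697739 to 70700616), the Jun protein that is usually present in resting cells, had 1108 and 778 reads, or 23.4 and 16.6 FPKM. Its fold of 0.711 (0.648 to 0.780) was the lowest of the 9 genes above 1 FPKM, with a log2 ratio of -0.47. Both genes were lower with CHBP by more than counting error and by less than 1.5-fold. Gm11175, which overlaps Jund, had 1 and 3 reads.

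Jun itself (chromosome 4, 95049034 to 95052222) had 891 reads without CHBP and 860 with CHBP, or 16.9 and 16.6 FPKM, and the interval of its fold, 0.889 to 1.07, covered 1. The antisense gene Junos overlaps Jun and had 195 and 232 reads. Whether strand was used in the counting was not stated, and the reads of both genes summed to 1086 and 1092, a fold of 1.02. Set against Jun within the same libraries, which removes the scaling between them, the fold of Junb was 0.829 times that of Jun (exact conditional 95% interval 0.740 to 0.929) and that of Jund 0.728 times (0.637 to 0.831). Neither ratio was corrected for transcript length. With the trend in length and GC content described below removed, the log2 ratio was -0.02 for Junb, -0.01 for Jun and -0.34 for Jund. The Jun family as a whole stood at 115 FPKM without CHBP and 94.0 FPKM with CHBP. Jun transcripts thus exceeded Fos transcripts in both libraries, with Fos family over Jun family at 0.223 and 0.306.

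Atf3 (chromosome 1, 191170296 to 191218039), a stress-induced factor that can repress as a homodimer, had 1023 reads without CHBP and 1037 with CHBP, or 24.2 and 24.9 FPKM. Its fold was 1.03, with an interval from 0.941 to 1.12 that covered 1. By deposited FPKM it had the second level of the 10 genes in both libraries, although its interval overlapped that of Jund without CHBP and that of Egr2 with CHBP.

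**Figure D2:**
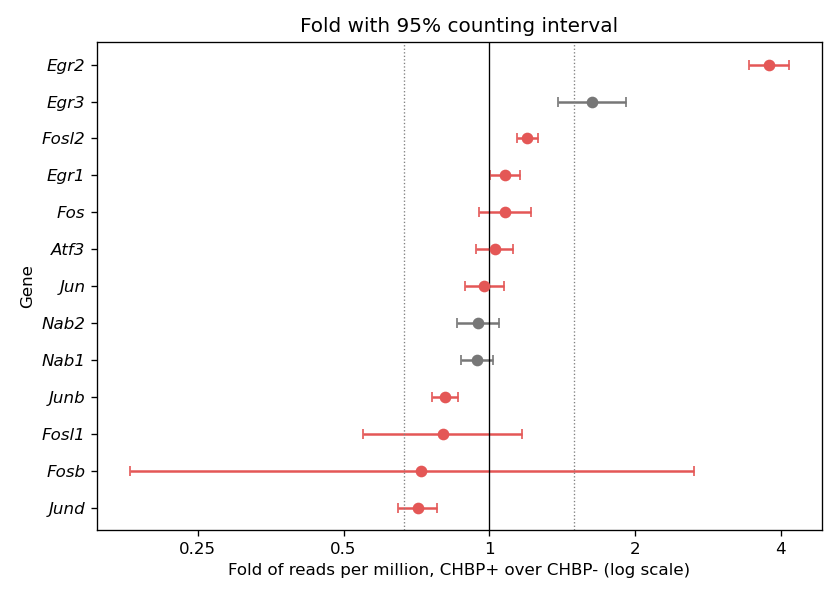
Fold of CPM (log axis), CHBP+ over CHBP-, for the 10 AP-1 and EGR genes (red) and for Egr3, Nab1 and Nab2 (grey), with exact Clopper-Pearson 95% intervals for counting error. Dotted lines mark 1.5-fold in each direction. Egr2 (3.78) and Egr3 (1.63) lie to the right, Junb (0.810) and Jund (0.711) to the left, and the interval of Fosb is the widest (0.181 to 2.65).

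Egr1 (ENSMUSG00000038418, chromosome 18, 34859823 to 34864984), the most studied EGR factor and a classical target of SRF, had 1503 reads without CHBP and 1602 with CHBP, or 12.1 and 13.1 FPKM. Its fold was 1.08 (1.01 to 1.16), a difference that barely exceeded counting error. Egr2 had 0.363 reads for each read of Egr1 without CHBP and 1.27 with CHBP, so that their order turned between the libraries. The fold of Egr2 was 3.50 times that of Egr1 (exact conditional interval 3.11 to 3.95). Both EGR genes together stood at 18.2 FPKM without CHBP and 36.1 FPKM with CHBP, or 9.93% and 19.7% of the summed FPKM of the 10 genes. The sum over all 10 genes was 184 FPKM in each library. Per longest transcript, an alternative added after seeing the data, the EGR share was 17.2% and 29.0%, and the sums were 236 and 255, so both depend on the gene length used.

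Of the other EGR genes, Egr3, a relative that often overlaps Egr2 in function, had 243 reads without CHBP and 391 with CHBP, or 10.4 and 17.0 FPKM. Its fold of 1.63 (1.38 to 1.92) and log2 ratio of 0.65 put it past 1.5-fold in the same direction as Egr2. Its fold was 1.51 times that of Egr1 (1.26 to 1.81), and the fold of Egr2 was 2.32 times that of Egr3 (1.92 to 2.81). Neither ratio was corrected for transcript length. Egr4 and Wt1 had 0 reads in both libraries, which allows up to 3 reads in each. The corepressor genes Nab1 (1464 and 1364 reads) and Nab2 (781 and 731 reads) had folds of 0.943 and 0.948, with intervals that covered 1. Of this list of 5 genes, 3 were above 1 FPKM and 1 of those was past 1.5-fold.

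Within a library the levels of the 10 genes spread from Fosb to Junb over a wide range. In CHBP- M-MDSC the order below Junb was Atf3 (24.2 FPKM), Jund (23.4), Jun (16.9), Fosl2 (15.1), Egr1 (12.1), Fos (8.13), Egr2 (6.09), Fosl1 (2.38) and Fosb (0.113), and only Atf3 and Jund had overlapping Poisson intervals as neighbours. In CHBP+ M-MDSC Egr2 had moved from the 8th to the 3rd place, next to Atf3, and the neighbours Fosl2 and Jund, and Jund and Jun, also overlapped.

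Levels of different genes depend on the gene length that the authors used. That length, recovered from reads and FPKM, was 7520 bases for Egr1, beyond its genomic span of 5162 bases, and 3792 bases for Fos, beyond its span of 3384. For 53.2% of 11739 genes it lay within 1% of the summed length of all distinct exons in GENCODE M1, where exons of different transcripts that overlap each add their full length. Of the 10 genes only Fos, Fosb and Fosl1 met this, and Egr1 (6136 bases of summed exons) and Fosl2 (11608 bases against 5855) did not. For Jun, Junb and Jund the recovered length equalled the genomic span, at 3189, 1840 and 2878 bases. How the length was made for Fosl2, Egr1, Egr2 and Atf3 was not found. Recomputed per kilobase of the longest protein-coding transcript, an alternative chosen after seeing the data, Egr1 stood at 29.4 and 31.7, Fosl2 at 29.9 and 35.8, Fos at 14.6 and 15.7 and Egr2 at 11.2 and 42.2 reads scaled to that length and the library total, without and with CHBP. Egr2 then went from the 8th to the 2nd place, Atf3 from the 2nd to the 4th, and Fos family over Jun family was 0.402 and 0.562. Junb kept the first place in both libraries on this scale.

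The 10 genes also share features of structure that did not choose them. In GENCODE M1 the longest transcripts of Jun, Junb and Jund have 1 exon, those of Egr1 and Egr2 have 2 and those of Fos, Fosb, Fosl1, Fosl2 and Atf3 have 4. The pentamer ATTTA, the core of AU-rich elements that mark mRNAs for decay, occurred at least once in the 3' UTR of all 10 longest transcripts, as it did in 67.7% of 10013 genes with a 3' UTR. Its density was highest in Fos (4.91 per kilobase of 3' UTR), Junb (4.14) and Jun (3.24), was 2.5 in Egr2 and was lowest in Fosb (0.472). The median was 2.19 per kilobase in the 10 genes and 1.26 in the 10013. Fos and Junb, with the highest densities, had folds of 1.08 and 0.810.

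Across 10211 genes above 1 FPKM with a GENCODE M1 transcript, the log2 ratio followed transcript length, with a Spearman's rho of 0.687. These are genes within 1 pair of libraries and not independent replicates. For Fosl2, with 5855 bases, the fitted value of a quadratic in length and GC content was 0.23, beside its log2 ratio of 0.25, and for Junb, with 1807 bases, it was -0.29 beside -0.30. Once the trend was removed, the log2 ratio was 0.005 for Fosl2, -0.02 for Junb and 0.02 for Fosl1, and it was -0.01 for Jun. Fos moved away from 0, from 0.09 to 0.21, as did Atf3, from 0.04 to 0.17, and Egr1 stood at 0.11. Jund stood at -0.34 and Egr2 at 1.77, the 8th highest of the 10211 genes. The related gene Egr3 moved from 0.65 to 0.99, nearer to Egr2 and further from Egr1. The ratios between pairs of genes given above were not recomputed on this scale. The SD of all genes around the trend was 0.243. What gave rise to the trend was not tested.

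**Figure D3:**
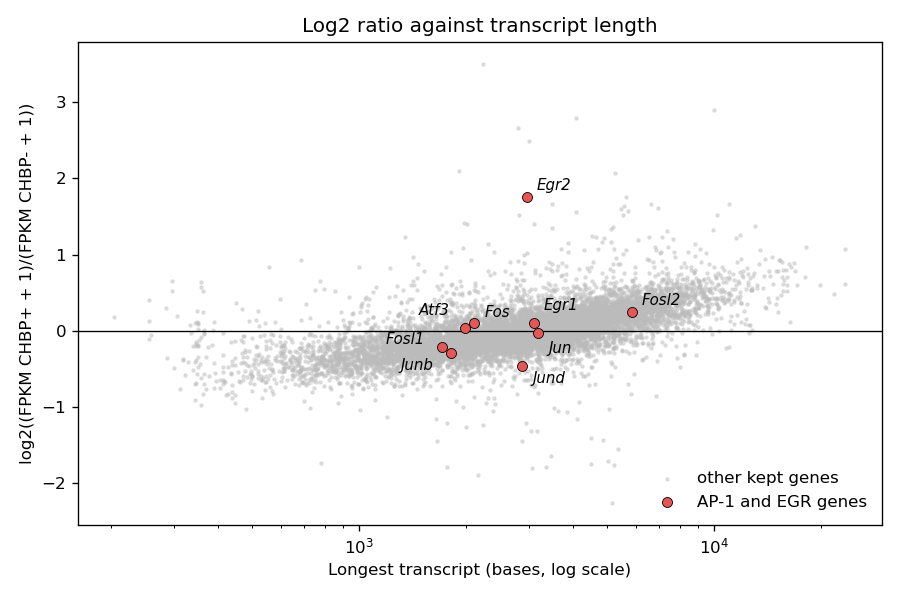
Log2 ratio of FPKM + 1, CHBP+ over CHBP-, against the longest GENCODE M1 transcript (bases, log axis) for 10211 genes (grey) and the 9 AP-1 and EGR genes above 1 FPKM (red). Junb, Fosl1 and Fosl2 lie within the band of all genes, Jund lies in its lower part at -0.47 and Egr2 lies far above it at 1.76.

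Around these factors, 7 lists of related genes held 136 genes, of which 121 were above 1 FPKM. Of these, 3 were at least 1.5-fold higher with CHBP and 3 at least 1.5-fold lower, beside 3.42% and 2.89% of all genes. These counts, and those of the single lists, are too small to set a list apart from all genes. Among 19 other AP-1-related bZIP factors above 1 FPKM, 2 were higher and 0 lower, with a median log2 ratio of -0.11. Atf5, a factor of the amino acid response, had 716 and 1496 reads, a log2 ratio of 1.03, and overlaps another gene with reads, so its count is uncertain. Atf7, a relative of Atf2, had 823 and 1409 reads and a log2 ratio of 0.64. Batf, a partner of Jun proteins in place of Fos, had 398 and 287 reads and a log2 ratio of -0.43, below 1.5-fold. Batf was named after its value was seen.

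Of 33 other immediate early genes above 1 FPKM, 0 were at least 1.5-fold higher and 3 at least 1.5-fold lower, and 24 had a log2 ratio below 0, as had 53.7% of all genes. Tnfaip3, an inhibitor of NF-kappaB, had 1709 reads without CHBP and 944 with CHBP, a log2 ratio of -0.71. Nr4a3, an orphan nuclear receptor, had 260 and 90 reads (-0.69), and Klf2, which restrains monocyte activation, had 818 and 515 reads (-0.62). With the length and GC trend taken out, Klf2 stood at -0.36 and 2 of the 3 remained past 1.5-fold. Below 1.5-fold, Plk2 (fold 1.33, 1.21 to 1.46), Per1 (1.30, 1.14 to 1.49) and Klf6 (1.19, 1.14 to 1.23) were higher with CHBP by more than counting error, and were named after their values were seen. Without the length and GC trend, the log2 ratio of Plk2 stayed at 0.39. That of Per1 went from 0.30 to 0.20 and that of Klf6 from 0.24 to 0.08. The list's median was -0.13, and -0.04 once the length and GC trend was removed. Zfp36, Zfp36l1 and Zfp36l2, which bind AU-rich elements, had log2 ratios of -0.13, -0.16 and -0.01.

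**Figure D4:**
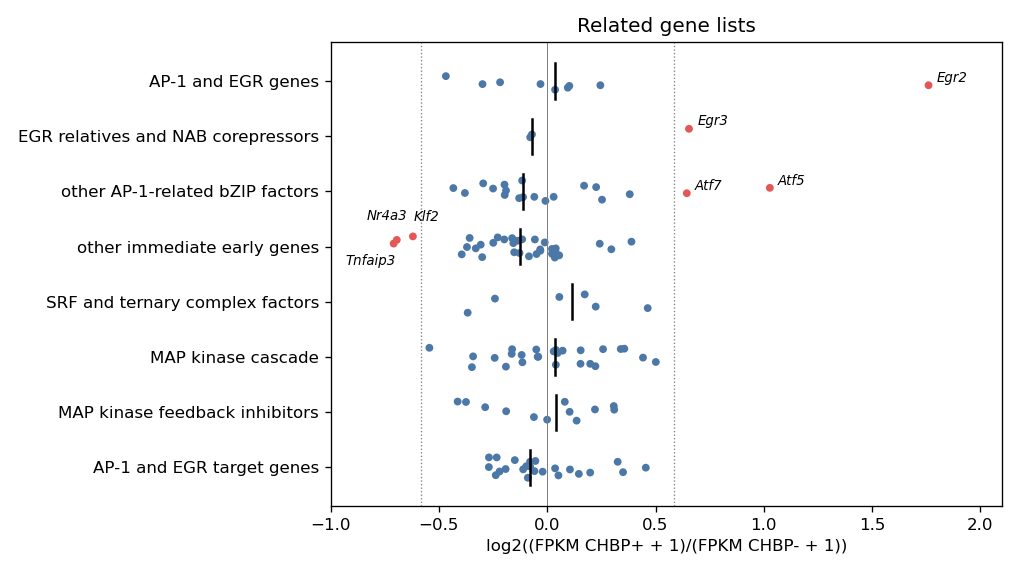
Log2 ratio of FPKM + 1, CHBP+ over CHBP-, of each gene above 1 FPKM in the AP-1 and EGR genes and in 7 related lists. Black bars are list medians, dotted lines mark 1.5-fold, and red points with names are past it. Egr2, Egr3, Atf5 and Atf7 lie to the right, and Tnfaip3, Nr4a3 and Klf2 to the left.

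Upstream of AP-1 and EGR, none of the 6 genes for SRF and its partners was past 1.5-fold on the log2 ratio, although Mkl2, an SRF coactivator with 475 and 723 reads, had a CPM fold of 1.54. Srf had 580 and 429 reads with a log2 ratio of -0.37, and Elk3, a ternary complex factor, had 1296 and 1456 reads (0.17). None of 26 genes of the MAP kinase cascade was past 1.5-fold in either direction on the log2 ratio, and their median was 0.03. By CPM fold, Braf (1.53) was past it upwards and Mapk13 (0.648) downwards. With the length and GC trend taken out, the log2 ratio of Braf went from 0.50 to 0.01 and that of Mapk13 from -0.54 to -0.26. That of Mkl2 went from 0.46 to 0.06. Mapkapk2, the kinase below p38, had 7599 and 6692 reads (-0.16), and Mapk3, which encodes ERK1, had 4852 and 4040 reads (-0.24). Of 12 feedback inhibitors above 1 FPKM, 0 passed 1.5-fold and the median was 0.04. Dusp6, the ERK phosphatase, had 3893 and 3843 reads with a fold of 1.00, and Dusp5 had 858 and 626 reads with a log2 ratio of -0.41.

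Of 23 genes known as targets of AP-1 or EGR that were above 1 FPKM, 0 were at least 1.5-fold higher or lower. Their median log2 ratio was -0.08, and 0.07 once the length and GC trend was removed. Spp1, which encodes osteopontin, had 110941 and 105488 reads (-0.05), and Mmp12, macrophage elastase, had 76498 and 81250 reads (0.10). The range over the list was -0.27 to 0.46.

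The sorted cells were checked against markers. Itgam, which encodes CD11b, has 2 entries with overlapping spans, with log2 ratios of 0.56 and 0.61, the latter past 1.5-fold. Without the length and GC trend the former stood at 0.40, and the latter had no GENCODE M1 transcript for this correction. Ly6c2 had 4091 and 2411 reads (-0.73, and -0.43 without the length and GC trend), Ly6c1 201 and 156 (-0.27), and Ly6g 46 and 44 (-0.03). Both Ly6c genes and Itgam were thus present, with Ly6g low. Summed FPKM without and with CHBP were 587 and 629 for 8 macrophage markers, 237 and 246 for 10 dendritic cell markers, and 3415 and 3093 for 12 neutrophil markers. They were 298 and 245 for 10 mast cell and basophil markers, 1308 and 604 for 9 erythroid markers, 124 and 93.9 for 6 B cell markers, and 5.93 and 4.89 for 7 T cell markers. Such sums can rest on few genes. Most of the neutrophil sum came from Mmp8 (1290 and 1546 FPKM), which was higher with CHBP, and from S100a9 (1269 and 937) and S100a8 (576 and 391), which were lower. In the erythroid sum, Hbb-bs alone stood at 708 and 212 FPKM. Past 1.5-fold were 0 macrophage markers and 0 dendritic cell markers, while 2 neutrophil, 3 erythroid and 1 B cell marker were lower, and of the mast cell and basophil markers 1 was higher and 1 lower. Of all genes 3.42% were higher and 2.89% lower. With the length and GC trend taken out, 0 neutrophil, 1 erythroid and 0 B cell markers remained lower, and of the mast cell and basophil markers 1 remained higher and 0 lower. Xcr1, a dendritic cell marker, had 0 reads. Any part of these cells in the Egr2 difference was not tested.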

How the data were processed

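Total RNA of 1 CHBP- and 1 CHBP+ M-MDSC library was analysed. The authors removed adapters, low-quality bases, short reads and ribosomal reads with Seqtk. The submitters' processing notes name HISAT2 2.0.4, Cufflinks 2.1.1, Cuffdiff and GRCm38, whereas the methods name TopHat2, HT-seq and mm9. All 10 genes lay on the RefSeq gene of the same symbol on GRCm38.p6, and coordinates are given as deposited. The deposited counts are raw reads per gene, and the deposited FPKM are those reads scaled by the authors to gene length and to the sum of counts.

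The log2 ratio used a pseudocount of 1 FPKM, and genes with at least 1 FPKM in either library were kept. No count model and no p-value were used, since a single library stands for each condition. The threshold of 1.5-fold is that of the study, without its P value. Transcript length, GC content and gene structure came from GENCODE M1, matched on the Ensembl identifier for 93.3% of the kept genes. The trend was a least-squares polynomial of degree 2 in log2 transcript length and GC content. The intervals, fold calls on the CPM ratio and trend removal were tested on simulated data. The simulated counts had Poisson error only, so that test does not cover spread between libraries. Calls on the log2 ratio with its pseudocount were not simulated.

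The 10 genes and the lists were chosen with earlier results of these data known. Besides the 10 genes and the sorting markers, the genes named are at most 3 per direction and list that passed 1.5-fold with at least 50 reads in either library, or the 2 of highest mean FPKM where fewer than 2 passed. Genes outside this rule (Batf, Plk2, Per1, Klf6, Mkl2, Braf, Mapk13, Hspa1a, Nab2, Egr4, Wt1, Xcr1, Mmp8, S100a8, S100a9, Zfp36, Zfp36l1, Zfp36l2 and overlapping genes) were named after their values were seen. The counts past the threshold were recomputed with a smaller pseudocount (0.1), with all genes or those from 5 FPKM up, with the median set to 0, with TMM factors from edgeR 4.0.16 under R 4.3.3, with CPM, with a fold of 2, with the trend removed and without overlapping genes. The 10 genes' log2 ratios had those of these alternatives that apply to a single gene, and the ratio of the Fos to the Jun family had TMM, CPM and the longest-transcript length. Ratios between pairs of genes were not recomputed, and the marker and heat shock lists only with the trend removed. The longest-transcript length and the sum of Jun and Junos were added after seeing the data. Python 3.11.15, numpy 2.4.6, pandas 2.3.3, scipy 1.17.1 and matplotlib 3.10.9 were used.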

Additional observations from a re-analysis of the deposited data

How the results depend on the processing

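Of the 10 genes, Egr2 was past the fold threshold in each alternative run, and no other of the 10 passed it in any. Its log2 ratio ranged from 1.76 to 1.90. It was 1.90 when 0.1 FPKM was added and 1.89 in CPM. Jund stayed between -0.49 and -0.34. Removing the length and GC trend moved Fosl2, Junb, Jund and Atf3 (to 0.17) outside their counting intervals, and turned Fosl1 from -0.22 to 0.02 within its interval. Over all genes, 374 were at least 1.5-fold higher and 316 lower. When 0.1 FPKM was added these were 665 and 571, from 5 FPKM up they were 218 and 209, at a fold of 2 they were 85 and 46, and 184 and 105 with the trend removed. With CPM 609 were higher, and without overlapping genes 232. Fos family over Jun family, 0.223 in CHBP- and 0.306 in CHBP+ M-MDSC, was 0.810 and 1.16 in CPM, which is not per length, and 0.402 and 0.562 per longest transcript. In the 7 related lists, 5 genes were higher in place of 3 with a pseudocount of 0.1 and with CPM, and 1 at a fold of 2, where 0 were lower. In the first 2 of these settings, the genes of SRF and its partners had 1 higher in place of 0, and the MAP kinase cascade 1 higher and 1 lower. The median log2 ratio of the AP-1 and EGR genes ranged from 0.0024 to 0.0948. No paired analysis was possible because each condition has 1 library, and no replicate could be left out. Depth limits Fosb and Fosl1 most.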

Other observations

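Heat shock genes respond to cell handling and stress, as many immediate early genes do. Above 1 FPKM, 8 of 9 had a log2 ratio below 0, as had 53.7% of all genes, and none was past 1.5-fold on that ratio. The median log2 ratio of the 9 genes was -0.30, beside -0.03 for all genes, and -0.24 once the length and GC trend was removed. Whether handling differed between the libraries was not tested. Hspa1a, a stress-inducible Hsp70 gene, had 225 reads without CHBP and 137 with CHBP, a log2 ratio of -0.55 and a CPM fold of 0.617 (0.495 to 0.766), past 1.5-fold on that scale. Hspa8, the constitutive chaperone, had 22922 reads in CHBP- and 20016 in CHBP+ M-MDSC (-0.18), and Hspd1, the mitochondrial chaperonin, had 5995 and 5307 (-0.16).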
